A study of Mus musculus with 4 samples.

Results

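The lysyl oxidases Lox, Loxl1, Loxl2, Loxl3 and Loxl4 and transglutaminase 2 (Tgm2) were followed by bulk RNA-seq in 4 libraries from mouse prostate cells in culture, labelled as fibroblasts. The genes were chosen by name as the cross-linking enzymes of the extracellular matrix, and all 6 were found among 56748 gene IDs and among the 14365 genes that averaged 1 CPM or more (CPM being counts scaled to a common library size). There was 1 library for each of PBS (phosphate-buffered saline), BuOE, PBS and radiation, and BuOE and radiation. The donors were male C57BL/6 mice aged 8 to 10 weeks (the genotype label reads CB57BL/6). In the irradiated groups the pelvis received fractions of 7.5 Gy over 5 days, 37.5 Gy in all, behind lead shielding and at 1.2 Gy per minute. BuOE forms part of the chemical name of BMX-001, the manganese porphyrin of the series title, which mimics superoxide dismutase; its dose, its timing and whether mice or cultures received it are unstated in the sources used here. Collagenase digests of the tissue were grown in serum-containing medium before RNA was isolated, so every group shares that culture step. The sources used here do not say how many animals or passages stand behind a library.

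Lysyl oxidases are secreted, copper-dependent amine oxidases that turn lysine and hydroxylysine side chains of collagen and elastin into aldehydes, which then condense into covalent cross-links between fibres. Lox and Loxl1 are made as pro-enzymes that are cleaved outside the cell, whereas Loxl2, Loxl3 and Loxl4 carry scavenger receptor cysteine-rich domains ahead of the catalytic domain. Tgm2 uses other chemistry: this calcium-dependent enzyme joins glutamine to lysine side chains, with fibronectin among its known matrix substrates. Cross-links of both kinds stiffen the matrix and make it harder to degrade, which is why these enzymes are studied in fibrosis.

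The kinship of the family is visible at the catalytic copper site, and it bears on whether sequencing reads can be told apart between the genes. The coding stretch around the copper-binding histidines is shown for the members for which it was read from the GENCODE M21 transcripts, 5′ to 3′, with the 3 histidine codons in capitals.
Loxl1: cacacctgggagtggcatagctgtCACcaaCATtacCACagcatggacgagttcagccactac
Loxl2: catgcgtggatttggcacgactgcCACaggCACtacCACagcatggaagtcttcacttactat
Loxl3: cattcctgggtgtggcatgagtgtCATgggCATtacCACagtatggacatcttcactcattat
Loxl4: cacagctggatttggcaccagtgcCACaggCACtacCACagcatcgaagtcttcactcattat
Loxl2 and Loxl4 matched at 54 of these 63 bases, the closest pair among the genes shown, which do not include Lox. Loxl1 matched Loxl2 and Loxl4 at 42 each. Over whole transcripts the longest exact run shared by any pair of the 6 genes was 32 bases, between Lox and Loxl1. Between Loxl2 and Loxl4 it was 23 bases. The sources used here do not give the read length.

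The deposited counts summed to between 25.0 M and 35.9 M per library. Every ratio below sets 1 library against 1 other without replicates, and the interval after it covers counting error only. Fibroblast markers (6 of 6 measured) summed to 1716 CPM with PBS, 2006 with BuOE, 2460 with PBS and radiation and 2665 with BuOE and radiation, and markers of other cell types were present too. Epithelial markers (7 of 7 measured) summed to between 2650 and 3855 CPM, endothelial markers (6 of 6) to between 409 and 681, macrophage markers (6 of 6) to between 310 and 470, and neuronal markers (6 of 6) to between 23.3 and 357. All 4 lymphocyte markers averaged under 1 CPM, and among all markers only the adipocyte gene Adipoq had no count in a library (BuOE). Mitochondrially encoded mRNAs took 0.403% of counts with PBS, 0.725% with BuOE, 0.864% with PBS and radiation and 2.64% with BuOE and radiation.

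Lox was the main lysyl oxidase transcript in every library. Lox, Loxl1 and Loxl3 were at least 2-fold lower in the BuOE library than in the PBS library (3 of 6 members, against 4.23% of all genes). Scaled by total counts alone, only Loxl3 passed 2-fold. Loxl2 had another pattern, with 1 high library, that of irradiated cells without BuOE. Tgm2 ran the other way from Lox and was highest in the irradiated BuOE library. Loxl4 was the least expressed and the least variable of the 6.

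**Figure D1:**
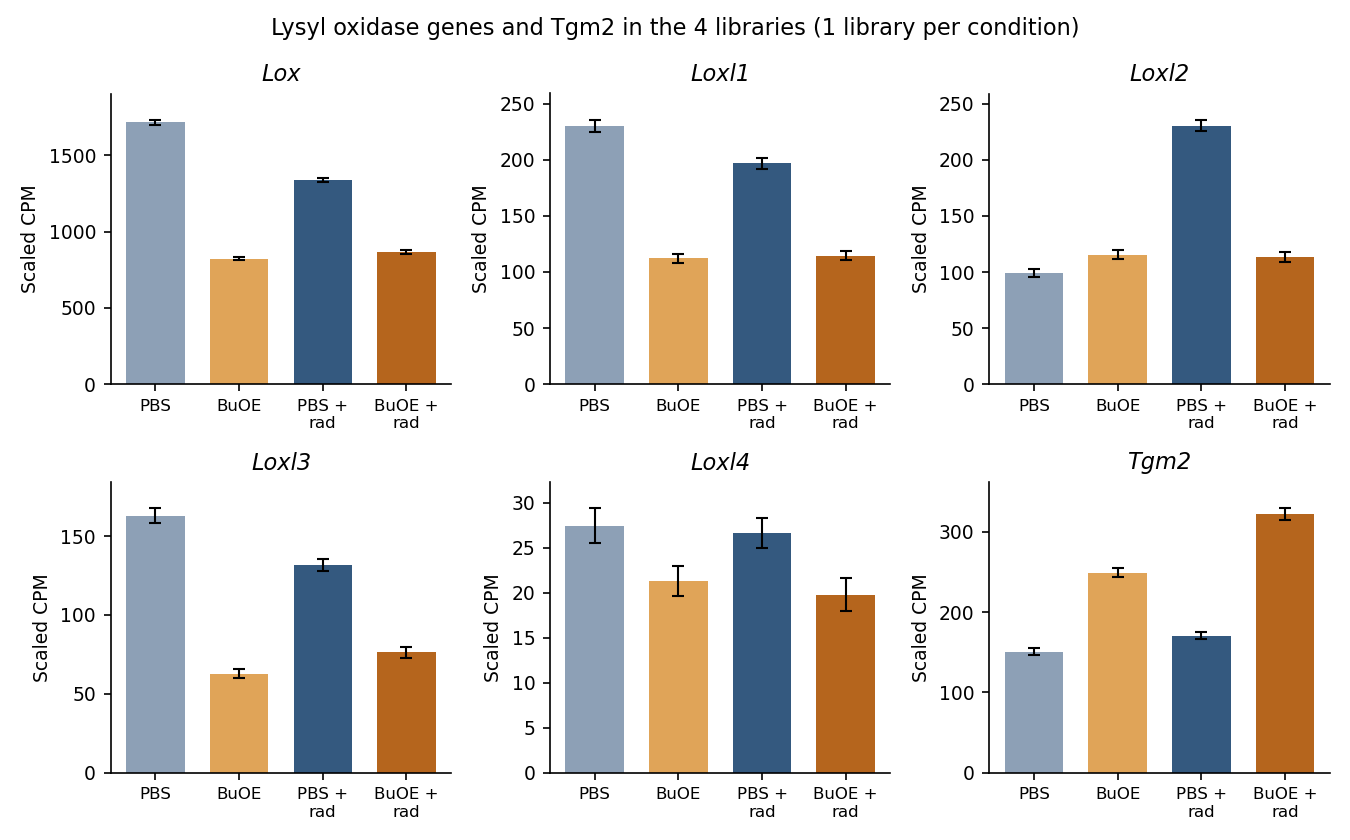
Scaled CPM of each gene (y axis, from 0) in the 4 libraries (x axis, 1 bar per library; error bars are exact Poisson 95% intervals of the count). Lox, Loxl1 and Loxl3 are lower in both BuOE libraries, Loxl2 stands out in the irradiated PBS library at 231 CPM, and Tgm2 is highest in the irradiated BuOE library at 322 CPM.

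Lox, the prototype of the family, stood at 1717 CPM with PBS, 823 with BuOE, 1336 with PBS and radiation and 866 with BuOE and radiation. Both BuOE libraries lay below both PBS libraries. The log2 ratio of BuOE to PBS was -1.06 (-1.08 to -1.04) without radiation and -0.62 (-0.65 to -0.60) after radiation. In these bulk cultures, fewer cells that express a gene and less RNA per cell cannot be told apart.

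Loxl1, which acts on elastic fibres, followed the same order at 230, 112, 197 and 115 CPM (PBS, BuOE, irradiated PBS, irradiated BuOE). Its 2 BuOE libraries did not differ beyond counting error (log2 ratio 0.03, -0.04 to 0.10). Its BuOE ratios were -1.04 (-1.10 to -0.98) without and -0.78 (-0.84 to -0.72) after radiation. Centred on their means, the log2 profiles of Lox and Loxl1 over the 4 libraries differed by a root mean square of 0.06, the smallest value among the 15 pairs of members.

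Loxl3, known for its part in palate and cartilage development, stood at 163 CPM with PBS, 62.9 with BuOE, 132 with PBS and radiation and 76.2 with BuOE and radiation. It had the lowest BuOE ratio of the 6 genes in unirradiated cells (-1.37, -1.45 to -1.30), at the 1.82nd percentile of all genes tested. Its annotated exons share 11.6% of their bases with Htra2, a gene on the opposite strand, whose own level was 54.3, 28.9, 44.8 and 29.9 CPM in the same order of libraries. The sources used here do not give the strand setting of the counting, so reads from that stretch cannot be assigned with certainty.

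Loxl2, which is known to cross-link basement membrane collagen, was at 99.3 CPM with PBS, 116 with BuOE, 231 with PBS and radiation and 114 with BuOE and radiation. Only the irradiated PBS library was high, and the other 3 lay within a range of 99.3 to 116 CPM. The radiation ratio was 1.21 (1.15 to 1.28) in the PBS arm, at the 95.8th percentile of all genes, and -0.02 (-0.10 to 0.05) in the BuOE arm, a value whose sign turned with upper-quartile scaling (0.09). After radiation, the ratio of BuOE to PBS was -1.02 (-1.08 to -0.96). Without radiation it was 0.22 (0.15 to 0.29).

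Loxl4, also of the scavenger receptor group, stood at 27.4 CPM with PBS, 21.3 with BuOE, 26.6 with PBS and radiation and 19.8 with BuOE and radiation. The 2 PBS libraries could not be told apart within counting error, nor could the 2 BuOE libraries, but each BuOE library lay below each PBS library. Its BuOE ratios were -0.36 (-0.52 to -0.21) without and -0.43 (-0.59 to -0.27) after radiation. The range of its log2 level over the libraries, 0.47, was below the median range of all genes (0.59), whereas that of the other 5 members lay between 1.04 (Loxl1) and 1.37 (Loxl3).

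Tgm2 stood at 151 CPM with PBS, 249 with BuOE, 171 with PBS and radiation and 322 with BuOE and radiation. All 4 levels differed beyond counting error, and both BuOE libraries lay above both PBS libraries. The ratio of BuOE to PBS was 0.72 (0.67 to 0.78) without radiation and 0.92 (0.87 to 0.97) after it, at the 87.2nd and 95.3rd percentiles of all genes. The radiation ratios were smaller, 0.18 (0.12 to 0.23) in the PBS arm and 0.37 (0.33 to 0.42) in the BuOE arm. Exons of Tgm2 share 13.7% of their bases with Gm20412, which had at most 0.70 CPM, and 8.03% with Rprd1b, which stayed between 37.6 and 41.5 CPM; both lie on the opposite strand.

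Levels of different genes were compared per length, as RPKM (here the scaled CPM divided by the merged exon length in kilobases). Summed over the 5 lysyl oxidases, the level was 489 RPKM with PBS, 246 with BuOE, 417 with PBS and radiation and 258 with BuOE and radiation. Lox made up between 67.1% and 73.4% of that sum, and Loxl1 between 13.4% and 14.3%. The share of Loxl2 was 3.76% with PBS, 8.68% with BuOE, 10.2% with PBS and radiation and 8.13% with BuOE and radiation. The make-up therefore differed least for Loxl1 and most, in relative terms, for Loxl2. The level of Lox was 11.0 times that of Tgm2 in the PBS library and 7.55 times in the irradiated PBS library. In the BuOE libraries it was 3.19 times without and 2.59 times with radiation. By level per length, Tgm2 ranked behind Loxl1 in both PBS libraries (32.8 against 69.7 RPKM, and 37.0 against 59.6 after radiation) and ahead of it in both BuOE libraries (54.0 against 34.0, and 69.9 against 34.7 after radiation).

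**Figure D2:**
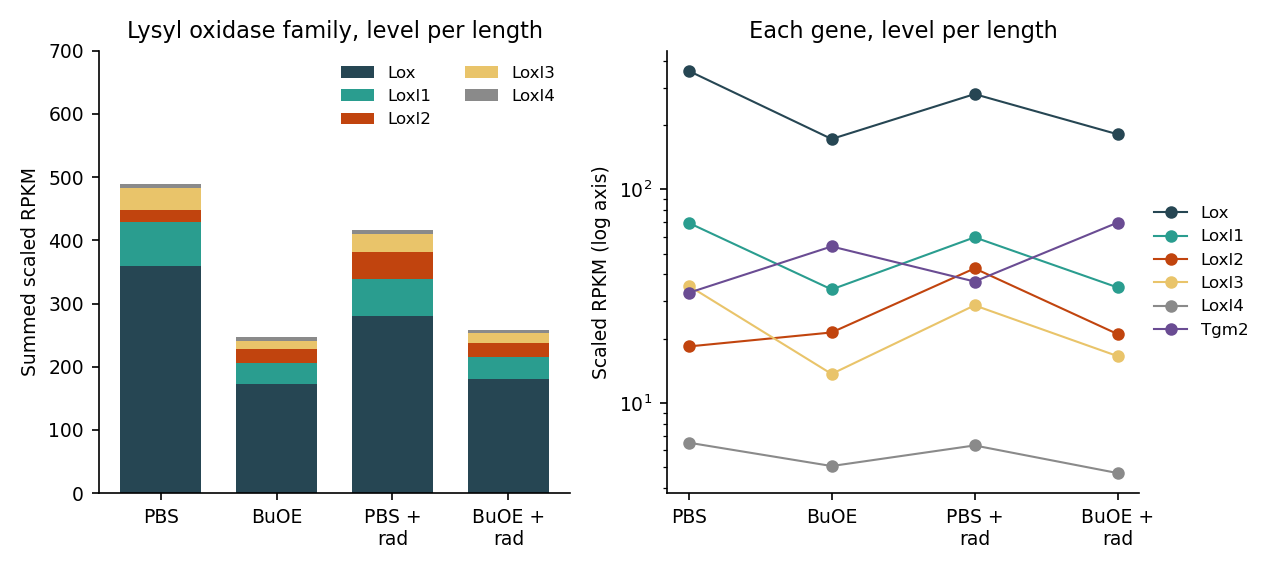
Left, scaled RPKM of the 5 lysyl oxidases stacked by library (y axis from 0); right, scaled RPKM of each of the 6 genes on a log axis, with lines that only join the points of a gene. The stack is 489 RPKM in the PBS library and 246 in the BuOE library, Lox fills most of it everywhere, and Tgm2 passes above Loxl1 in both BuOE libraries.

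The first design question is what radiation left in the cultured cells without BuOE. In the PBS arm 1 of 6 members, Loxl2, was at least 2-fold different, and it was higher; 5.62% of all genes were at least 2-fold higher. Lox (-0.36, -0.38 to -0.34), Loxl3 (-0.30, -0.36 to -0.25) and Loxl1 (-0.22, -0.27 to -0.18) were lower in the irradiated library by less than 1.5-fold, and the ratio of Loxl4 (-0.04, -0.18 to 0.09) had an interval that includes 0. The median of the 6 was -0.13, against 0.00363 over all genes. Markers of endothelial cells, which also express Loxl2, summed to 409 CPM in the PBS library and 681 CPM in the irradiated PBS library, with all 6 measured. Their sum was 556 CPM with BuOE and 616 with BuOE and radiation, where Loxl2 stood at 116 and 114 CPM. Other markers moved further between the PBS and the irradiated PBS library. Those of Schwann cells (5 of 5 measured) summed to 18.5 and 71.8 CPM. Neuronal markers summed to 23.9 and 110 CPM, and adipocyte markers (5 of 5) to 508 and 179 CPM. The part of any of these cells in the Loxl2 ratio was not tested.

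In the BuOE arm the same contrast gave no member at least 2-fold or 1.5-fold different, where 7.21% and 19.7% of all genes were. Tgm2 had the highest ratio (0.37) and Loxl3 the next (0.28, 0.18 to 0.37). The ratio of Lox was 0.07 (0.05 to 0.10) and that of Loxl1 0.03, and both turned negative when libraries were scaled by total counts alone (-0.04 and -0.08). Loxl4 had a ratio of -0.11 (-0.28 to 0.06), which was 0.01 with upper-quartile scaling. The median of the 6 was 0.05, against -0.03 over all genes.

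Between the arms, Loxl2 was the only member whose radiation ratios differed by at least 2-fold, by 1.24 on the log2 scale (PBS arm minus BuOE arm, 1.14 to 1.33); 8.76% of all genes had a difference of at least 2-fold in that direction. Loxl3 (-0.58, -0.69 to -0.47), Lox (-0.44, -0.47 to -0.40), Loxl1 (-0.26, -0.34 to -0.17) and Tgm2 (-0.20, -0.27 to -0.12) had differences of the other sign. All 5 differences moved with the scaling. Library size alone gave 1.36 for Loxl2, -0.46 for Loxl3, -0.32 for Lox, -0.14 for Loxl1 and -0.08 for Tgm2. Upper-quartile factors gave 1.09, -0.73, -0.58, -0.40 and -0.34 in the same order. The median of all genes was 0.15 and -0.11 with these scalings. No test of these differences exists with 1 library per condition.

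The comparison of BuOE with PBS in unirradiated cells put 3 of 6 members, Lox, Loxl1 and Loxl3, at least 2-fold lower, where 4.23% of all genes were at least 2-fold lower. Scaled by total counts alone, only Loxl3 passed 2-fold, since Lox was then at -0.97 and Loxl1 at -0.95. Tgm2 was at least 1.5-fold higher, as were 16.0% of all genes. The median of the 6 was -0.70, against -0.01 over all genes. Within the same library pair, the contractile genes Acta2 (782 and 308 CPM in the PBS and BuOE libraries), Tagln (388 and 175) and Actg2 (44.4 and 15.8) were lower with BuOE, while the smooth muscle genes Myh11 (24.4 and 99.4), Des (38.2 and 85.6) and Cnn1 (4.53 and 12.5) were higher. The summed level of these 6 smooth muscle markers, all measured, was 1281 CPM in the PBS library and 696 CPM in the BuOE library, and its part in the ratios of the lysyl oxidases was not tested. Adipocyte markers (5 of 5 measured) summed to 508 CPM in the PBS library and 158 in the BuOE library. Neuronal markers summed to 23.9 and 357 CPM, and Schwann cell markers to 18.5 and 114 CPM. All 5 Schwann cell markers were at least 2-fold higher with BuOE, as were 8.72% of all genes.

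After radiation, BuOE was compared with PBS in the 2 irradiated libraries, the pair closest to the title's question on radiation-induced fibrosis. Here 5 of 6 members were lower and 1, Tgm2, was higher; over all genes 43.8% had a ratio above 0. At least 1.5-fold lower were Lox, Loxl1, Loxl2 and Loxl3 (4 of 6, against 14.6% of all genes), and Tgm2 was at least 1.5-fold higher (1 of 6, against 11.0%). Only Loxl2 passed 2-fold (1 of 6, against 5.92% of all genes lower), and with DESeq2 size factors no member did. With upper-quartile scaling Tgm2 (1.05) passed 2-fold in place of Loxl2 (-0.88). The median of the 6 was -0.70, against -0.07 over all genes. Epithelial markers, whose cells can also express Tgm2, summed to 2650 CPM in the irradiated PBS library and 3784 CPM in the irradiated BuOE library, and macrophage markers to 310 and 470 CPM; their part in the ratio of Tgm2 was not tested. Of the 6 fibroblast markers 4 were lower with BuOE in this pair (median -0.33), with Pdgfrb at -1.16 and Thy1 at -1.01, whereas Dcn (0.41) and Pdgfra (0.23) were higher. The part of fibroblasts in the ratios of the lysyl oxidases was not tested.

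**Figure D3:**
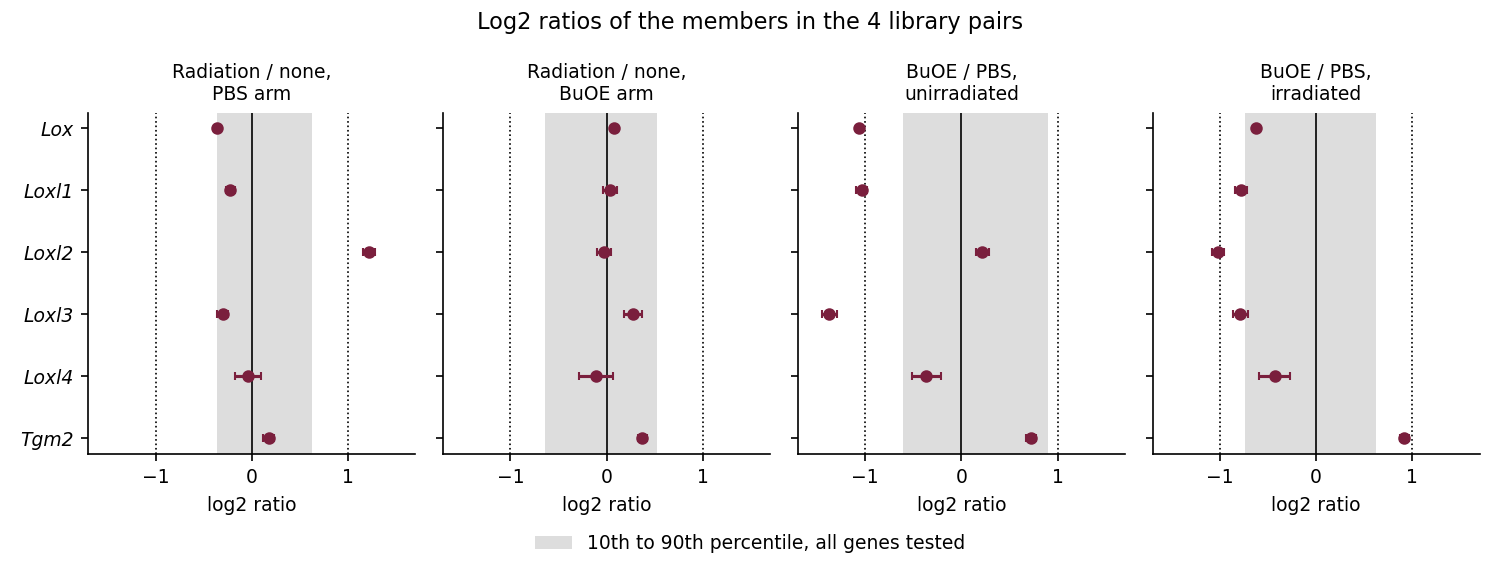
Log2 ratio of scaled CPM (x axis) for the 6 genes (y axis) in each of the 4 library pairs, with 95% counting intervals; grey marks the 10th to 90th percentile of all genes tested and dotted lines mark 2-fold. Loxl2 lies outside the grey band in the PBS arm, Lox, Loxl1 and Loxl3 lie below it for BuOE in unirradiated cells, and for BuOE in irradiated cells Loxl1, Loxl2 and Loxl3 lie below it and Tgm2 above it.

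Set by treatment, both BuOE libraries were lower than both PBS libraries for 4 of 6 members (Lox, Loxl1, Loxl3 and Loxl4), an order found in 29.8% of all genes, and both were higher for Tgm2, an order found in 22.3%. For no member did both irradiated libraries lie above, or below, both unirradiated ones (12.6% and 13.5% of all genes). A model with additive terms for radiation and BuOE was fitted with 1 residual degree of freedom, and it takes the interaction of the 2 factors as error. In that fit edgeR's quasi-likelihood test called 0% of 14365 genes at an adjusted p of 0.05 for either term. Unadjusted p was under 0.05 for 1076 genes (radiation) and 2954 genes (BuOE). limma-voom also called 0 genes for each term, whereas DESeq2 called 112 for radiation and 866 for BuOE.

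For the BuOE term of the additive model, edgeR gave a log2 change of -1.08 for Loxl3 (adjusted p = 0.119), -0.91 for Loxl1 (0.101), -0.84 for Lox (0.191), and 0.82 for Tgm2 (0.114). Those 4 genes passed the threshold with DESeq2, with adjusted p of 0.00128 for Loxl3, 0.00131 for Loxl1, 0.00392 for Lox and 0.000614 for Tgm2. With a filter of 10 CPM, edgeR called Loxl1 (adjusted p = 0.0431) and 400 genes in all. For Loxl2 the edgeR value was -0.40 (adjusted p = 0.552) and for Loxl4 -0.40 (adjusted p = 0.243). For the radiation term, no member passed the threshold with edgeR, DESeq2 or limma-voom, and the value of Loxl2 was 0.60 (edgeR adjusted p = 0.698). The calls for BuOE thus differed with the tool and with the filter.

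The pattern of each member over the 4 libraries was set beside those of 9643 other protein-coding genes that averaged 10 CPM or more, by the root mean square difference of centred log2 levels. Closest to Lox were Hist1h1d, which encodes a linker histone (0.02), Pcdh7, a protocadherin gene (0.03), and Tcof1 (0.04). Nearest to Loxl1 were Pola2, a subunit of DNA polymerase alpha (0.02), Dkc1 (0.03) and Sept11 (0.03). Loxl3 lay closest to Phldb2 (0.06), Atoh8 (0.06) and Pcolce2, a procollagen proteinase enhancer gene (0.07). For Tgm2 they were Net1 (0.03), Rnf167 (0.04) and Tbc1d2 (0.04), and for Loxl4 Srsf10 (0.00453), Anapc1 (0.0119) and Vma21 (0.0143). Loxl2 had few close genes: Kctd12b (0.07), Aldh1a2, which encodes a retinoic acid synthesising enzyme (0.11), and Spon2 (0.13). Within a difference of 0.2 there were 10 genes for Loxl2, against 515 for Lox, 447 for Loxl1, 443 for Tgm2, 144 for Loxl3 and 3776 for Loxl4. With only 4 libraries, many genes have a similar profile. The difference is not scaled by range, so a nearly flat profile such as that of Loxl4 (log2 range 0.47) has more genes near it. Loxl3 had a wider range (1.37) than Loxl2 (1.21).

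The substrates of the lysyl oxidases did not share the pattern of Lox. All 9 measured collagen and elastin genes of the list had their highest level in the irradiated PBS library, the library where Loxl2 was also highest; 17.5% of all genes were highest there. Col3a1, a fibrillar collagen, stood at 1264, 1725, 2687 and 1012 CPM (PBS, BuOE, irradiated PBS, irradiated BuOE). The levels of Col1a1, the main chain of collagen I, were 1652, 1443, 2249 and 795 CPM. Eln, which encodes elastin, stood at 1.87, 16.2, 27.9 and 11.2 CPM. In the irradiated pair all 9 were lower with BuOE, where 43.8% of all genes had a ratio above 0. Of the 9, 7 were at least 2-fold lower, against 5.92% of all genes. The median of the 9 was -1.18, against -0.07 over all genes. In the unirradiated pair Lox, Loxl1 and Loxl3 were at least 2-fold lower. The substrates had a median of -0.20 in that pair, and none was 2-fold lower, against 4.23% of all genes. The lowest ratio there was that of Col11a1 (-0.53, -0.69 to -0.37).

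Of the genes for activation and scaffolding of lysyl oxidases, 10 of 11 were measured, and their medians in the BuOE comparisons were -0.65 without and -0.68 after radiation. All 10 were lower with BuOE after radiation, where 43.8% of all genes had a ratio above 0. Of the 10, 6 were at least 1.5-fold lower, against 14.6% of all genes. Pcolce, an enhancer of procollagen cleavage, had the lowest ratio after radiation (-1.46, -1.55 to -1.38). Tll1, a protease of the Bmp1 family, had the lowest without it (-2.06, -2.24 to -1.89). Fn1, which encodes the fibronectin scaffold, was at 3182, 3747, 5576 and 3997 CPM, and the matricellular gene Postn at 179, 382, 344 and 237 CPM. Thbs1, a matricellular gene with the highest CPM of the list, was lower with BuOE without radiation (-0.53) and close to even after it (-0.08, -0.09 to -0.07). Bmp1, which cleaves the Lox pro-enzyme and was picked out here after its values were seen, stood at 296, 315, 301 and 171 CPM, so only the irradiated BuOE library was low.

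Of the copper supply genes, Slc31a1, which encodes the copper importer, stayed between 69.0 and 76.9 CPM. Atp7a, the pump that loads copper onto secreted enzymes, stood at 55.5, 69.8, 71.2 and 87.5 CPM, and Atox1, a copper chaperone gene, between 41.9 and 50.4 CPM. Atp7b, the paralog of Atp7a, was at 1.46 to 3.20 CPM and had the only ratio past 2-fold, for BuOE without radiation (1.09). For BuOE after radiation 0 of 4 were 1.5-fold different, and 25.5% of all genes were, so a count of 0 of 4 is near that background. Of the lysine hydroxylation genes, which set the kind of collagen cross-link, all 4 were lower with BuOE after radiation. Over all genes 43.8% had a ratio above 0 in that pair. The 4 genes ran from Plod3 (-0.38) to Fkbp10 (-0.70), with a median of -0.54, against -0.07 over all genes. Plod1 had the highest ratio of the list for radiation in the PBS arm (0.60, 0.55 to 0.66), and Plod2, the telopeptide lysyl hydroxylase, was at 142, 123, 186 and 123 CPM.

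Other transglutaminases were mostly scarce, with 4 of 9 measured. Tgm4, the prostate transglutaminase of seminal secretions, stood at 1.91 CPM with PBS, 45.7 with BuOE, 41.1 with PBS and radiation and 86.4 with BuOE and radiation. Tgm1, the keratinocyte enzyme of the cornified envelope, was at 1.98, 5.64, 6.71 and 17.2 CPM. Both shared with Tgm2 the highest level in the irradiated BuOE library and the lowest in the PBS library. Of all genes, 28.4% were highest in the irradiated BuOE library. Tgm3, an epidermal transglutaminase, shared with Tgm2 only the lowest library: it stood at 0.817, 3.40, 2.05 and 1.11 CPM, highest in the BuOE library. Its ratio was -1.56 for radiation in the BuOE arm and -0.84 for BuOE after radiation. F13a1, which encodes a clotting transglutaminase found in macrophages, stayed between 16.1 and 22.8 CPM, and was also highest in the irradiated BuOE library.

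Of 8 genes known as partners of Tgm2 at the cell surface, in the matrix or in redox control, 0 were 2-fold different in any of the 4 comparisons; of all genes, 6.63% were for radiation in the PBS arm, 7.21% in the BuOE arm, 12.9% for BuOE without and 9.74% after radiation, so a count of 0 of 8 is near that background. Adgrg1, an adhesion receptor gene, had the highest ratio for BuOE without radiation (0.79), at 69.2 against 40.0 CPM. Sdc4, a heparan sulfate proteoglycan that binds the enzyme with fibronectin, was at 255, 395, 329 and 539 CPM, the same order of libraries as Tgm2. Its BuOE ratios were 0.63 (0.59 to 0.67) without and 0.71 (0.68 to 0.75) after radiation. The list did not share this: for BuOE after radiation 6 of the 8 genes were lower and 2 higher (median -0.16). Over all genes 43.8% had a ratio above 0 in that pair. Lrp1, the endocytic receptor, stood at 2608, 2001, 2552 and 2252 CPM, lower in both BuOE libraries.

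Among 11 genes that are known to induce the members, Tgfb1 stood at 287, 271, 281 and 220 CPM and Hif1a, the hypoxia factor subunit, at 294, 295, 418 and 270 CPM. The highest level of Hif1a was in the irradiated PBS library, where Loxl2 was also highest, but Lox was not. Of the 11 genes 2 were highest in that library, near the 17.5% of all genes. Tgfb3 had the lowest ratio of the list for BuOE after radiation (-0.91). Rarb, a retinoic acid receptor gene, had the highest ratio for BuOE without radiation (1.04, 0.84 to 1.26), at 19.7 against 9.54 CPM. The medians of the list were 0.16 for radiation in the PBS arm, -0.13 in the BuOE arm, 0.20 for BuOE without and -0.06 with radiation.

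**Figure D4:**
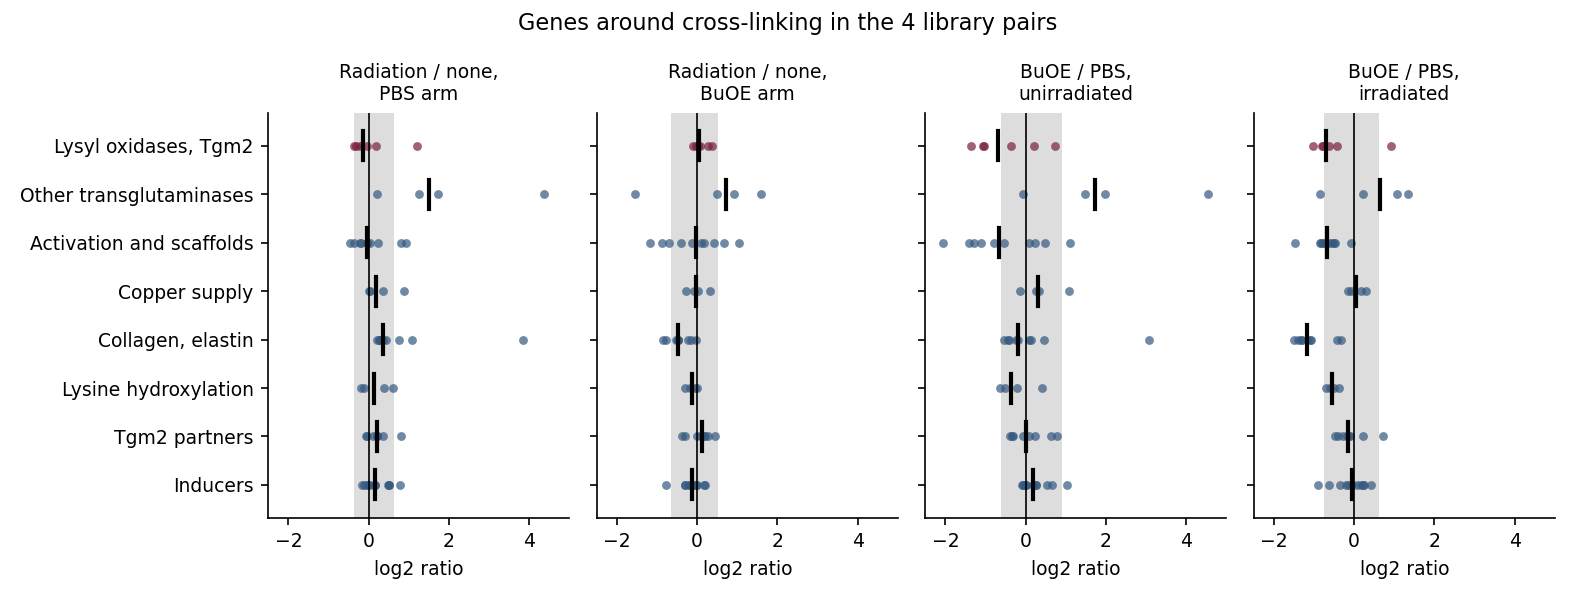
Log2 ratio (x axis) of every measured gene of the 6 cross-linking enzymes and of 7 lists around them (y axis; black ticks are medians, grey is the 10th to 90th percentile of all genes tested) in the 4 library pairs. All 9 collagen and elastin genes lie above 0 for radiation in the PBS arm and below 0 for BuOE after radiation, while the lysyl oxidases other than Loxl2 already lie below 0 for BuOE without radiation.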

How the data were processed

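The values are raw counts of reads per gene, deposited by the authors in 1 table that has 4 columns, 1 per library. They were made with featureCounts on GRCm39, per the submitters' processing notes; Trim Galore 0.6.4, Salmon 1.4.0 and edgeR 4.2.2 are listed there without a role. Strand setting and multi-mapping rules are not given in the sources used here. Names and merged exon lengths came from GENCODE M21 (GRCm38) by Ensembl ID, so no coordinates are given; 4623 of 56748 IDs had no symbol there and stayed in the totals (0.682% to 1.28% of counts). TMM scaling (edgeR 4.0.16, R 4.3.3) gave factors between 0.972 and 1.05. Genes averaging at least 1 CPM were kept, and log2 ratios used a prior count of 2. Intervals are exact binomial (ratios), exact Poisson (levels) or normal (differences of ratios), at 95%, and cover counting error only. The additive model was fitted with edgeR's quasi-likelihood test, DESeq2 1.42.0 and limma-voom (limma 3.58.1) with Benjamini-Hochberg adjustment. The ratios, the binomial intervals and edgeR's radiation term were also run on simulated counts, which had less spread than the data and no BuOE effect. DESeq2 and limma-voom were not run on them. Alternatives changed the scaling, the filter, the prior count or the tool.

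The members and lists were chosen with earlier results of these data known. The naming rule takes all members, the 2 most expressed genes and the extremes of each list, and the 3 genes nearest to each member in profile; the text describes a part of the list genes it takes. Bmp1 was added after its values were seen. Coding stretches come from the longest reading frame of the longest coding transcript of each gene. Samples were grouped by the treatment label.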

Additional observations from a re-analysis of the deposited data

Results flagged for a closer look

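For 4 of the 6 members the radiation ratio had opposite signs in the PBS and the BuOE arm. The share of all genes with opposite signs was not counted, so 4 of 6 cannot be set against a background. Over all genes, 50.4% had a radiation ratio above 0 in the PBS arm and 46.2% in the BuOE arm. With 1 library per condition none of the differences between the arms was tested. Loxl2 was higher after radiation in the PBS arm and close to even in the BuOE arm, a difference of 1.24 on the log2 scale (PBS arm minus BuOE arm). Seen from the other side of the design, its BuOE ratio was above 0 without and below 0 after radiation, which is the same difference of 1.24. The differences of Loxl3 (-0.583), Lox (-0.436) and Loxl1 (-0.257) had the other sign, with lower levels after radiation in the PBS arm. The signs of Loxl2, Lox and Loxl1 in the BuOE arm turned with the scaling, so for these 3 genes the opposite signs depend on it. The BuOE-arm intervals of Loxl2 (-0.10 to 0.05) and Loxl1 (-0.04 to 0.10) also include 0, so counting error alone leaves their sign undecided.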

How the results depend on the processing

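Of 210 recomputed ratios and differences of the members, 205 kept their sign, and the largest move was 0.15 on the log2 scale. Another 32 kept their sign but moved beyond the counting interval. The filters cannot change these values, and the prior counts hardly did, so only the scaling alternatives could turn a sign. Library size alone turned the radiation ratio in the BuOE arm for Lox (-0.0381), Loxl1 (-0.0804) and the median of the 6 members (-0.0593). Upper-quartile factors turned it for Loxl2 (0.0919) and Loxl4 (0.00743), and also turned the difference between the arms of Loxl4 (-0.0803). These scalings moved the median of all genes in that arm to -0.15 and 0.08. The count of members at least 2-fold different was 1 with library size alone for BuOE without radiation (3 with TMM) and 0 with DESeq2 size factors for BuOE after radiation (1 with TMM). In the additive model, DESeq2 called 4 members for BuOE and a filter of 10 CPM called 1, against 0 with edgeR; limma-voom turned the radiation value of Loxl3 to 0.00166 (adjusted p = 0.999). Over all genes, the BuOE term had 283 calls without a filter. The number of all genes at least 2-fold different for BuOE without radiation was 1860, but 5223 without a filter and 772 with a filter of 10 CPM, and the other 2-fold and 1.5-fold counts over all genes also moved by over 1.5 times with these filters, which change the genes tested. No paired analysis was possible because each group has 1 library, and for the same reason no library could be left out. Depth limits Loxl4 most, with 480 to 948 counts per library.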
